A study of Rattus norvegicus with 9 samples.

Results

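The EGF family genes described here are 10 of the 34267 genes in a table of RNA levels from rat cartilage progenitor cells, chosen by symbol: 6 ligand genes (Nrg1, Tgfa, Hbegf, Areg, Ereg and Btc), 3 receptor genes (Egfr, Erbb2 and Erbb3) and Errfi1, an inhibitor of the receptors. Each symbol matched a single row. The cells were wild-type primary cultures from condylar cartilage, the cartilage of the jaw joint, and polyadenylated RNA was sequenced in 9 libraries, 3 for each group. P9 libraries came from cells cultured to passage 9, the series' model of replicative senescence. FFSS libraries came from cells of passage 3 put under flow fluid shear stress (FFSS), in which liquid passing over the cells pulls on them, the series' model of degeneration by mechanical load. P3 libraries came from passage 3 cells and served as the control for both. The strain, sex and age of the animals and the strength and length of the flow were not given in the sources used here, nor was it stated whether the 3 libraries of each group were separate animals or separate dishes. Each p therefore measures only the spread between these libraries, which may be technical.

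EGF family ligands are made as membrane-bound precursors. Proteases, chiefly ADAM17, release them, and they then bind receptor tyrosine kinases of the ERBB family on the same or a nearby cell. Tgfa, Hbegf, Areg, Ereg and Btc products bind EGFR, some of them ERBB4 as well, whereas NRG1 binds ERBB3 and ERBB4; ERBB2 has no known ligand and acts as a partner of the others. Errfi1 encodes the protein also called MIG6, a feedback inhibitor that binds the EGFR kinase domain and is itself induced by growth factors and stress. In mice, loss of Errfi1 leads to early joint degeneration, and TGF-alpha has been studied in rat models of osteoarthritis.

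Of the ligand genes, 3 lie in a cluster on rat chromosome 14 of the Rnor_6.0 build: Btc at chr14:18231860-18272484 on the plus strand, and Areg at chr14:18521930-18531179 and Ereg at chr14:18576355-18591394 on the minus strand. With Epgn, which encodes the related ligand epigen, they span 402 kb, and no other gene of the table used here lay wholly within that span. Nrg1 is at chr16:63837216-64057434, Tgfa at chr4:117962319-118046344 and Errfi1 at chr5:167952728-167966009 on the plus strand, and Hbegf at chr18:29329764-29340403 on the minus strand. The receptor genes Egfr (chr14:99919485-100098796, plus), Erbb2 (chr10:86367596-86391728, plus) and Erbb3 (chr7:2989340-3010350, minus) lie apart from the cluster. The only annotated gene found to overlap a member was a small nuclear RNA inside Erbb2, listed at 0 FPKM in every library.

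Promoter windows, 250 bases before to 50 after the start of each gene, were found for 7 members, all but Nrg1, Ereg and Erbb3, in the RefSeq table of the GRCr8 build, a different build from that of the expression table. Areg and Errfi1 are shown because both had their highest levels in FFSS libraries and because matches to searched motifs stand close to their starts. The motifs were searched on both strands. They were the cyclic AMP response element TGACGTCA, the AP-1 site TGANTCA, the TEAD site GGAATG, the TATA box TATAAA and the CArG box of serum response factor, and of these only a CArG box can contain another, the TATA box. Capitals mark matches. Areg is chr14:17265592-17265891 on the minus strand, and Errfi1 is chr5:166606591-166606890 on the plus strand, each 5′ to 3′.
Areg promoter: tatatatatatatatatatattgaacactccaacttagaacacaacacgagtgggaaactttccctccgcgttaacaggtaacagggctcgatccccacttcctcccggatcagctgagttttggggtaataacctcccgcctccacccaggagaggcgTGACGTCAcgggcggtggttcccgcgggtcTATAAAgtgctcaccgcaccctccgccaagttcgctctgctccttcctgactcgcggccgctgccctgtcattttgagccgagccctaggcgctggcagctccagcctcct
Errfi1 promoter: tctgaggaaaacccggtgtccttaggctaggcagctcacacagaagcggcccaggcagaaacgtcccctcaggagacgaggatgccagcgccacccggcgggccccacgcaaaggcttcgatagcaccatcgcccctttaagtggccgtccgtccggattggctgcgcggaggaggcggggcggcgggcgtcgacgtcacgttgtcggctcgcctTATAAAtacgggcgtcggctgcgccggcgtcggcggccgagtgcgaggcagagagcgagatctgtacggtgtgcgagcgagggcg
Counted from the start as 0, the Areg window holds the cyclic AMP element at -91 to -84 and a TATA box at -61 to -56, and the Errfi1 window holds a TATA box at -35 to -30. Of 33469 rat promoter windows of the same length, 1.83% hold the cyclic AMP element and 14.2% the TATA box. The AP-1 site is in 7.33% of windows, the CArG box in 1.64% and the TEAD site in 14.2%. Among the 7 members, neither the AP-1 site nor the CArG box was found, and the TEAD site was found in Erbb2 alone. These are matches of letters in short windows, not measured binding.

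Gene-assigned fragments numbered 13264930 to 15323790 per library. Values are FPKM, fragments scaled by gene length in kilobases and by library depth. On the log2 scale, FFSS replicate 1 had a Pearson r of 0.915 and 0.947 across genes with FFSS replicates 2 and 3, against 0.936 to 0.945 with the P3 libraries; it stood nearer to P3 than the other FFSS libraries did. Fold changes of the members in FFSS are therefore given with and without it. That library was singled out from these same data. Leaving out the FFSS library nearest to P3 favours larger differences in FFSS and a smaller spread. Results without it, here and below, are therefore a description and no support for a change. Of the cartilage markers, Sox9 (4.06 to 15.3 FPKM), Acan (29.3 to 609 FPKM) and Col11a1 (194 to 918 FPKM) were detected in all libraries. Comp was too, at 0.887 FPKM or more. Col2a1, the main cartilage collagen, was at most 1.06 FPKM. Col9a1, Matn3 and Cnmd were below 1 FPKM throughout, and Matn1 was listed at 0. Prg4 ranged from 0 in P9 replicate 1 to 41.9 FPKM in FFSS replicate 1. These markers did not move together. Acan averaged 561, 40.2 and 128 FPKM in P9, FFSS and P3, and Col11a1 234, 478 and 857 FPKM. Mesenchymal markers summed to 1207 to 2171 FPKM, the largest part of it Thy1, at 823 to 1437 FPKM. They did not move together either. Eng averaged 29.1, 97.6 and 59.0 FPKM in P9, FFSS and P3, Cd44 averaged 145, 163 and 173 FPKM, and Vcam1 was below 1 FPKM throughout. The leukocyte markers, 6 of them in the table, summed to 5.14 to 5.66 FPKM in P9, 42.2 to 105 FPKM in FFSS and 9.60 to 11.1 FPKM in P3. Most of this was Cd14, also expressed outside leukocytes, and Ptprc and Adgre1 were at most 0.040 FPKM in any library. The other leukocyte markers were higher in FFSS libraries. Csf1r, a receptor of macrophages, had at most 0.218 FPKM in P9, 0.0840, 3.17 and 2.08 FPKM in FFSS and at most 0.187 FPKM in P3. Lyz2, a lysozyme of myeloid cells, was listed at 0 in P9, had 0.0562, 5.36 and 2.94 FPKM in FFSS and at most 0.305 FPKM in P3. Both were thus high in FFSS replicates 2 and 3 and low in FFSS replicate 1, the order also seen for Hbegf, Areg and Errfi1 but not for Ereg. This order was not particular to leukocyte markers. The transcription factor genes Egr1 (68.3, 286 and 205 FPKM in FFSS) and Junb (150, 825 and 599 FPKM in FFSS) had it too. Cd68, a lysosomal protein abundant in macrophages, had 2.16, 2.60 and 2.11 FPKM in FFSS, at most 0.848 FPKM in P9 and at most 0.873 FPKM in P3. It passed the test filter of at least 1 FPKM in at least 3 libraries only through FFSS. Its limma result against P3 (log2 fold change 0.97, adjusted p = 0.00780) is therefore a description and no support for a rise. Glial markers summed to 19.1 to 28.2 FPKM in P9, 65.0 to 89.99 FPKM in FFSS and 15.5 to 28.9 FPKM in P3, nearly all of it S100b, which chondrocytes also express, and epithelial markers summed to at most 2.13 FPKM. In bulk RNA, fewer cells of a type and less RNA per cell cannot be told apart.

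**Figure D1:**
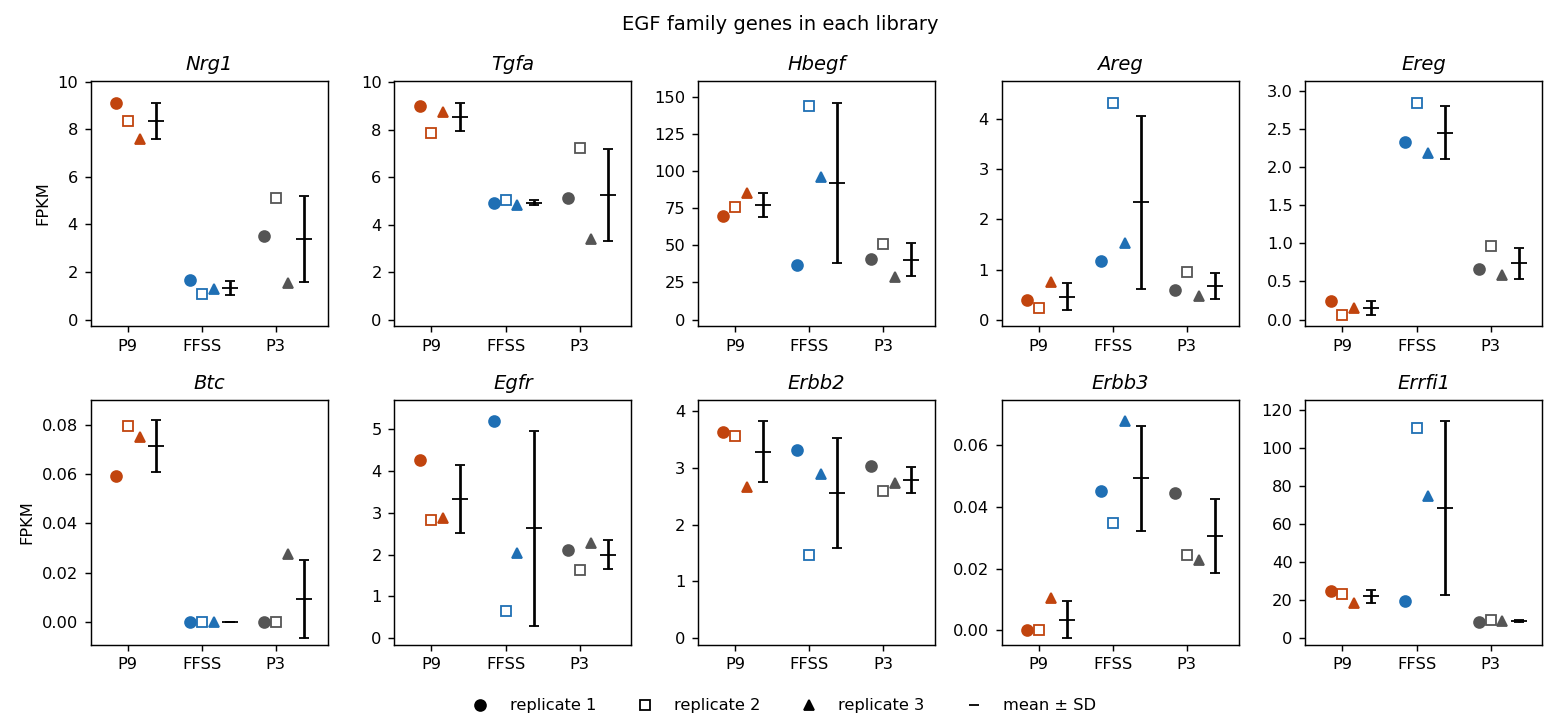
FPKM of each EGF family gene (vertical axis, linear) in the P9, FFSS and P3 libraries, with symbols for replicates and black marks for the mean ± SD of 3 libraries. Nrg1 and Tgfa were highest in P9, Areg, Ereg and Errfi1 in FFSS, and Btc and Erbb3 stayed below 0.1 FPKM throughout.

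FPKM is scaled by gene length, so levels can be set in order between genes. Hbegf stood first in mean level in each group, at 77.2 ± 7.87 FPKM in P9, 92.3 ± 53.9 FPKM in FFSS and 40.3 ± 11.2 FPKM in P3 (SD, n = 3 each). Errfi1 and then Tgfa followed in each group. The next place differed: it was held by Nrg1 in P9 and P3, with library values that overlapped those of Tgfa and in P3 also those of Erbb2, while in FFSS Nrg1 had a mean below those of Egfr, Erbb2, Ereg and Areg. Its FFSS range overlapped those of Egfr, Erbb2 and Areg, so these places are not separated beyond the spread. The ranges of Areg and Ereg overlapped in every group, those of Egfr and Erbb2 overlapped in P9 and FFSS, and those of Hbegf and Errfi1 overlapped in FFSS alone. Btc and Erbb3 shared the last places.

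Differences between groups were tested with limma on log2(FPKM + 1), with p-values adjusted by the Benjamini-Hochberg method over all 13059 genes that had at least 1 FPKM in at least 3 libraries; a gene with an adjusted p under 0.05 is referred to as called. Of the members, 8 passed this filter. Btc and Erbb3 did not, and Areg and Ereg passed only through the FFSS libraries, so no weight can be placed on how many members that passed were called. For the same reason the tests of Areg and Ereg against FFSS are descriptive, since both entered through the group where they were high. The log2 scale with 1 FPKM added understates the ratio of low genes.

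Passage 9 cells had more Nrg1 RNA than passage 3 cells, and more still relative to sheared cells. Nrg1, neuregulin 1, is a ligand best known from nerve, heart and breast. Its level was 9.13, 8.35 and 7.60 FPKM in P9, 1.66, 1.09 and 1.27 FPKM in FFSS, and 3.54, 5.12 and 1.52 FPKM in P3. All P9 libraries lay above all others. The P3 libraries were spread widely, and FFSS replicate 1 exceeded the lowest of them. Nrg1 rose in P9 against P3 by 1.18 on the log2 scale (SE 0.29; limma, adjusted p = 0.0334). That call was lost in 6 of the 9 fits that left out 1 library: any P9 library, P3 replicate 1 or 3, or FFSS replicate 3 (adjusted p = 0.0545 to 0.107). It was also lost with 0.1 FPKM added instead of 1 (adjusted p = 0.0510) and without a filter (adjusted p = 0.0718). The level in FFSS was not called against P3 (log2 fold change -0.83, SE 0.29, adjusted p = 0.0702), except without P3 replicate 3, the lowest of its group (log2 fold change -1.18, adjusted p = 0.0132). The contrast of P9 with FFSS was called in each of the 9 fits that left out 1 library, with a log2 fold change of 2.005 (SE 0.29, adjusted p = 0.00126, highest 0.00723).

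Tgfa, which encodes transforming growth factor alpha, was also highest in P9. It stood at 8.99, 7.85 and 8.76 FPKM in P9, 4.89, 5.05 and 4.84 FPKM in FFSS, and 5.11, 7.23 and 3.37 FPKM in P3. The P9 libraries did not overlap either group, while the FFSS values lay inside the P3 range. Against P3 the difference was not called (log2 fold change 0.66, 95% confidence interval 0.19 to 1.12, adjusted p = 0.0860), and it was called without P3 replicate 2, the highest of its group (0.88, adjusted p = 0.0231). Tgfa was higher in P9 than in FFSS by 0.68 on the log2 scale (SE 0.21, adjusted p = 0.0340). That call was lost without any P9 library, without FFSS replicate 2 or 3, or without P3 replicate 1 (adjusted p = 0.0567 to 0.0911). FFSS differed from P3 by -0.03 (95% confidence interval -0.49 to 0.44, adjusted p = 0.939), and by 0.20 without P3 replicate 2.

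Hbegf, the heparin-binding ligand of EGFR, was the most abundant of the ligand genes and uneven among sheared libraries. It reached 69.9, 76.1 and 85.5 FPKM in P9, 36.5, 144 and 96.3 FPKM in FFSS, and 40.8, 51.2 and 28.9 FPKM in P3. All P9 libraries lay above P3. FFSS replicates 2 and 3 were the highest of all 9 libraries and FFSS replicate 1 lay within the P3 range. With all libraries, neither difference was called: the log2 fold change was 0.95 in P9 against P3 (SE 0.43, adjusted p = 0.226) and 1.01 in FFSS against P3 (SE 0.43, adjusted p = 0.123). Without FFSS replicate 1 both were called, at 0.95 in P9 against P3 (adjusted p = 0.0214) and 1.56 in FFSS against P3 (adjusted p = 0.00199). That fit leaves out the FFSS library nearest to P3, so both calls are a description. P9 was also called against P3 when only the 6 libraries of P9 and P3 were fitted (adjusted p = 0.0191). P9 and FFSS did not differ beyond their spread (log2 difference -0.05, 95% confidence interval -1.03 to 0.92, adjusted p = 0.936), with a positive sign without P9 replicate 1 or without FFSS replicate 2 or 3.

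Ereg and Areg, neighbours in the chromosome 14 cluster, were low in all groups and highest under shear. Ereg, epiregulin, stood at 0.245, 0.0625 and 0.147 FPKM in P9, 2.33, 2.85 and 2.18 FPKM in FFSS, and 0.662, 0.968 and 0.581 FPKM in P3. The 3 groups did not overlap, with FFSS on top and P9 lowest, and FFSS replicate 1 stood between the other FFSS libraries. The values rested on 7, 2 and 5 fragments in P9, 73, 87 and 68 in FFSS, and 21, 28 and 18 in P3. Ereg rose in FFSS against P3 by 0.99 on the log2 scale (SE 0.17, adjusted p = 0.00635), a ratio of mean FPKM of 3.33. It was called in all 9 fits that left out 1 library (adjusted p = 0.00507 to 0.0338). Those fits kept every gene that passed the filter with all libraries. Ereg passed only through FFSS, so these calls are a description and no support for a rise. P9 was lower than FFSS by a log2 difference of -1.58 (SE 0.17, adjusted p = 0.000319). Against P3, P9 was not called with 1 FPKM added (-0.59, adjusted p = 0.0675). It was called lower with 0.1 FPKM added (-1.77, adjusted p = 0.0319) and by voom, limma's method for counts, on the fragments (-2.32, adjusted p = 0.0238).

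Areg, amphiregulin, had 0.386, 0.230 and 0.760 FPKM in P9, 1.17, 4.34 and 1.53 FPKM in FFSS, and 0.580, 0.954 and 0.475 FPKM in P3. Every FFSS library exceeded every P9 and P3 library, and FFSS replicate 2 was far the highest. P9 and P3 overlapped. FFSS was not called against P3 (log2 fold change 0.90, SE 0.33, adjusted p = 0.0832), and it was called without FFSS replicate 1 (1.15, adjusted p = 0.0246). That fit kept the filter of all libraries, which Areg passed only through FFSS, so the call is a description. P9 was lower than FFSS by a log2 difference of -1.10 (SE 0.33, adjusted p = 0.0338), a call lost without P9 replicate 1 or 2, FFSS replicate 2 or 3, or P3 replicate 1 or 3 (adjusted p = 0.0506 to 0.102). The leukocyte and glial marker sums were also highest in the FFSS libraries, and their part in the levels of Ereg, Areg, Hbegf and Errfi1 was not tested.

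Btc, betacellulin, the other ligand of the cluster, was listed at 0.0594, 0.0797 and 0.0752 FPKM in P9, from 2, 3 and 3 fragments. It had 0 fragments in the FFSS libraries, which allows up to 0.0834 FPKM, and 0, 0 and 1 fragments in P3. All libraries were at or under the limit of 3 fragments, so no fold change is given. The other ligand genes of the family that were in the table, Egf, Epgn, Nrg2 and Nrg4, were below 1 FPKM in every library. Their sum did not exceed 0.368 FPKM in P9, 0.974 FPKM in FFSS and 0.410 FPKM in P3.

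The receptor genes were expressed at a few FPKM, and none of their differences was called with all libraries. Egfr had 4.27, 2.84 and 2.89 FPKM in P9, 5.19, 0.644 and 2.04 FPKM in FFSS, and 2.12, 1.62 and 2.26 FPKM in P3. All P9 libraries lay above P3, and the FFSS libraries held both the highest and the lowest value of the 9. The log2 fold change was 0.52 in P9 against P3 (95% confidence interval -0.40 to 1.44, adjusted p = 0.504). In FFSS against P3 it was 0.07 (95% confidence interval -0.85 to 0.99, adjusted p = 0.916), with a negative sign without FFSS replicate 1 or P3 replicate 2, with 0.1 FPKM added, and by voom. P9 was called higher than FFSS only without FFSS replicate 1 (log2 difference 0.94, adjusted p = 0.0232).

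Erbb2 had 3.63, 3.55 and 2.66 FPKM in P9, 3.31, 1.46 and 2.89 FPKM in FFSS, and 3.04, 2.58 and 2.73 FPKM in P3. The groups overlapped, and FFSS replicate 2 was the lowest library, as for Egfr. The log2 fold changes were 0.17 in P9 (adjusted p = 0.706) and -0.13 in FFSS against P3 (adjusted p = 0.705, 0.12 without FFSS replicate 2). Erbb3, whose product has little kinase activity of its own and pairs with ERBB2, had 0, 0 and 1 fragments in P9, 4, 3 and 6 in FFSS and 4, 2 and 2 in P3. Its highest level was 0.0680 FPKM. Erbb4, the remaining receptor, had 0.406, 0.121 and 0.261 FPKM in P9, at most 0.106 FPKM in FFSS and at most 0.0955 FPKM in P3. Its P9 libraries thus all lay above the others, but it did not pass the filter and was not tested. In the P9 libraries, where Nrg1 was highest, the RNAs of both receptors that bind NRG1 directly were thus below 1 FPKM.

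Errfi1 rose under shear, and its P9 libraries also all lay above P3. It stood at 24.6, 23.0 and 18.2 FPKM in P9, 19.7, 111 and 74.7 FPKM in FFSS, and 8.23, 9.32 and 9.16 FPKM in P3. Every P9 and every FFSS library exceeded every P3 library, and FFSS replicate 1 lay among the P9 values. Errfi1 rose in FFSS against P3 by 2.50 on the log2 scale (SE 0.51, adjusted p = 0.0109), and was called in all 9 fits that left out 1 library, with the highest fold change, 3.21, without FFSS replicate 1. In P9 against P3 the log2 fold change was 1.20 (SE 0.51) and was not called (adjusted p = 0.196) with a spread estimated over all 3 groups. It was called with only the P9 and P3 libraries (adjusted p = 0.00154) and without FFSS replicate 1 (adjusted p = 0.00208), at the same fold change. P9 was below FFSS by a log2 difference of -1.30 (SE 0.51, adjusted p = 0.0811), called only without FFSS replicate 1 (-2.01, adjusted p = 0.000100).

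**Figure D2:**
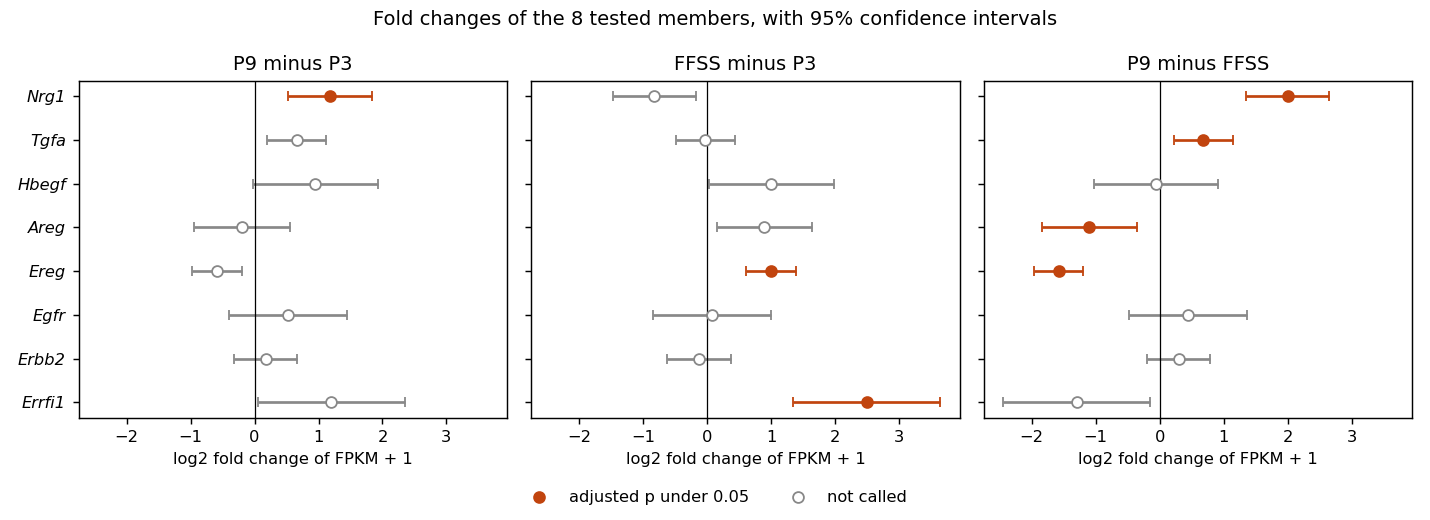
Log2 fold changes of FPKM + 1 for the 8 tested members (horizontal axis) in the 3 comparisons, with 95% confidence intervals from limma and filled symbols for adjusted p under 0.05. Nrg1 was called higher in P9 against both groups, Ereg and Errfi1 were called higher in FFSS against P3, and Nrg1, Tgfa, Areg and Ereg were called between the models.

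In P9 against P3, 1 of the 8 tested members was called, higher, against 9.83% of all tested genes (5.39% higher and 4.44% lower). In FFSS against P3, 2 of 8 were called, both higher, against 21.8% of all tested genes (11.4% higher and 10.4% lower). In P9 against FFSS, 4 of 8 were called, 2 in each direction, against 31.4% of all tested genes (16.1% higher and 15.3% lower). The groups did not overlap for 6 tested members in P9 against P3, 5 of them higher and 1 lower, where 40.1% of all tested genes did not overlap (20.9% higher and 19.1% lower). They did not overlap for 3 in FFSS against P3, each higher, against 42.4% of all tested genes (20.1% higher and 22.3% lower). In P9 against FFSS this held for 4, with 2 in each direction, against 42.2% of all tested genes (22.2% higher and 20.0% lower). With 8 members tested, these counts describe the family and give no measure of enrichment. The comparisons with P3 share the same 3 control libraries. The contrast of P9 with FFSS is the test of whether the effects of the models differ, and by it Nrg1 and Tgfa were higher in P9. Ereg and Areg were higher in FFSS, the group through which they passed the filter. Without FFSS replicate 1, the log2 fold change in FFSS against P3 was -0.92 for Nrg1 (adjusted p = 0.0504), -0.02 for Tgfa, 1.02 for Ereg (adjusted p = 0.00507) and -0.29 for Erbb2, with values for the other tested members given above. In P9 against FFSS it was then 2.10 for Nrg1, 0.68 for Tgfa, -1.35 for Areg and -1.61 for Ereg, each still called (adjusted p up to 0.0426).

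**Figure D3:**
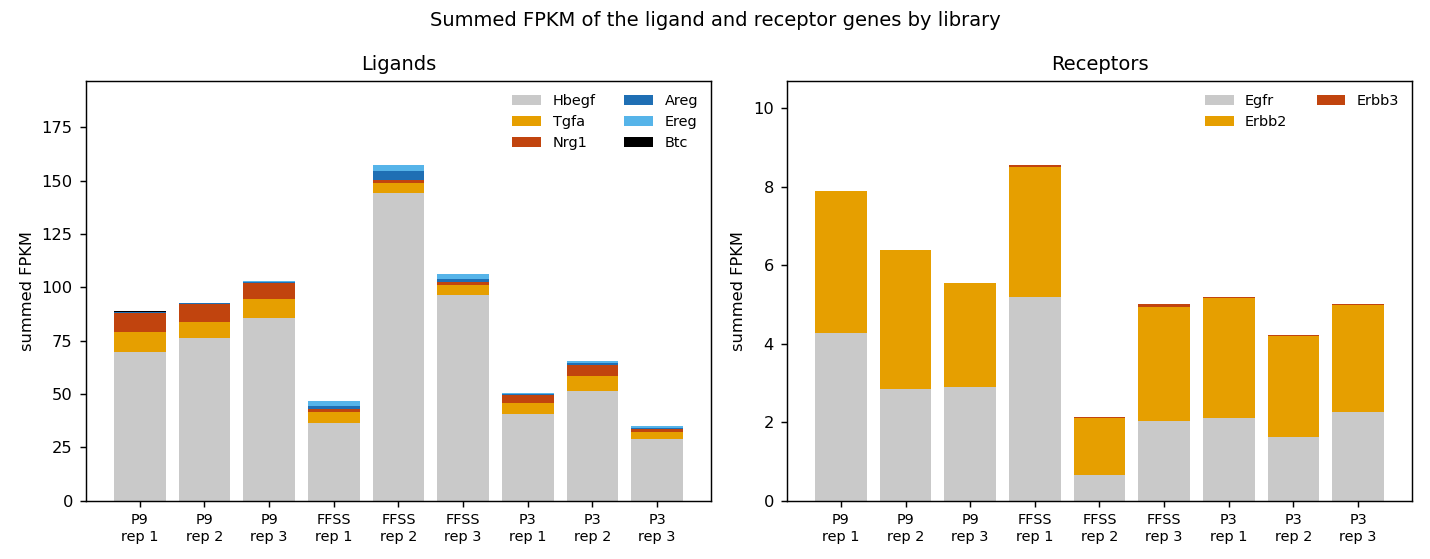
Stacked FPKM of the 6 ligand genes (left) and the 3 receptor genes (right) in each library, on linear axes of summed FPKM. Hbegf made up 78.2 to 91.5% of the ligand sum, and the receptor sum was lowest, at 2.14 FPKM, in FFSS replicate 2, where the ligand sum was highest, at 157 FPKM.

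Added up, the 6 ligand genes gave 88.7, 92.7 and 103 FPKM in P9, 46.5, 157 and 106 FPKM in FFSS, and 50.7, 65.5 and 34.9 FPKM in P3. Most of each sum was Hbegf, with 81.4 ± 2.27% in P9, 86.9 ± 7.35% in FFSS and 80.5 ± 2.34% in P3 (SD, n = 3 each). Nrg1 took 8.90 ± 1.45% of the ligand sum in P9, 1.82 ± 1.53% in FFSS and 6.39 ± 1.80% in P3, with overlap between P9 and P3 and none of either with FFSS. Without Hbegf, the ligand sum was 16.6 to 18.8 FPKM in P9, 9.83 to 13.3 FPKM in FFSS and 5.98 to 14.3 FPKM in P3, so that P9 stood above both groups with no overlap. The receptor genes summed to 5.56 to 7.90 FPKM in P9, 2.14 to 8.55 FPKM in FFSS and 4.23 to 5.20 FPKM in P3.

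The surrounding pathway was described with 54 further genes, of which 47 were tested: the other ligands and receptor, proteins that release ligands, inhibitors and turnover factors of the receptors, adaptors and the RAS-ERK relay, and genes that ERK signalling is known to switch on. Several of the last are also switched on by other pathways. In P9 against P3, 4 of the 47 rose and 2 fell (median log2 fold change 0.09, against -0.00262 over all genes tested, of which 5.39% rose and 4.44% fell). In FFSS against P3, 14 rose and 7 fell (median 0.17, against -0.01 over all genes tested, of which 11.4% rose and 10.4% fell). In P9 against FFSS, 10 were higher and 15 lower (median 0.02, against 0.00291 over all genes tested, of which 16.1% were higher and 15.3% lower).

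Of the genes of ligand release, Rhbdf2 was called in both models, in opposite directions. Rhbdf2 encodes iRhom2, the carrier that brings ADAM17 to the cell surface. It stood at 2.15 ± 0.436 FPKM in P9, 10.01 ± 1.03 FPKM in FFSS and 4.97 ± 0.427 FPKM in P3 (SD, n = 3 each). It fell in P9 against P3 (log2 fold change -0.93, adjusted p = 0.00435) and rose in FFSS (0.88, adjusted p = 0.00521), and kept both calls in every fit without 1 library. Adam17 itself had 18.7 ± 2.53 FPKM in P9, 35.4 ± 7.87 FPKM in FFSS and 20.3 ± 0.924 FPKM in P3, and rose in FFSS (log2 fold change 0.76, adjusted p = 0.0129), which was not called once P3 replicate 1 (adjusted p = 0.0531) or P3 replicate 2 (adjusted p = 0.0530) was left out. Rhbdf1, which encodes the related iRhom1, was called in FFSS at 0.41 (adjusted p = 0.0474) and lost that call in 8 of the 9 fits without 1 library (adjusted p up to 0.161). In all, 3 of the 5 genes of ligand release rose in FFSS against P3 and none fell, where 11.4% of all tested genes rose and 10.4% fell. Without P3 replicate 1 or 2, 1 of them was called in FFSS, while in P9 Rhbdf2 alone was called.

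Among 13 inhibitors and turnover factors, Lrig1 and Spry1 were called in P9. Lrig1, a membrane protein that promotes receptor breakdown, had 4.40 ± 0.970 FPKM in P9, 0.869 ± 0.433 FPKM in FFSS and 1.28 ± 0.272 FPKM in P3, and rose in P9 against P3 (log2 fold change 1.23, adjusted p = 0.00913). Spry1, an inhibitor of RAS-ERK signalling, fell in P9 to 3.29 ± 0.389 FPKM, against 7.83 ± 0.466 FPKM in P3 (-1.04, adjusted p = 0.00585). Lrig3 rose in FFSS, at 51.0 ± 6.35 FPKM in FFSS and 31.3 ± 0.867 FPKM in P3 (0.68, adjusted p = 0.00504). Each of these calls held in every fit without 1 library. Cbl, a ubiquitin ligase that sends EGFR to breakdown, and Rnf41, a ubiquitin ligase acting on ERBB3, fell in FFSS by 0.70 and 0.39 on the log2 scale (adjusted p = 0.0161 and 0.0334). Cbl was not called once P3 replicate 1 (adjusted p = 0.0536) or P3 replicate 2 (adjusted p = 0.0682) was left out. The call of Rnf41 was lost in 6 of the 9 fits (adjusted p up to 0.122). Without FFSS replicate 1, 3 of these inhibitors rose in P9 and 1 fell, and 5 rose in FFSS and 2 fell, each against P3. Calls also grew over all 13059 tested genes, to 5131 in FFSS against P3 in that fit. In P9 against P3 they numbered 619 to 2230 in the fits without 1 library. Without P3 replicate 1 or 2 none fell in FFSS.

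Of the 16 adaptors and relay genes, none was called in P9 against P3 by limma over all libraries or by voom (2 had an unadjusted p under 0.05, as had 23.2% of all tested genes). With only the P9 and P3 libraries, or without FFSS replicate 1, 1 was called higher. In FFSS against P3, 3 rose and 3 fell, where 11.4% of all tested genes rose and 10.4% fell. Nras, a RAS protein, changed by -0.45 on the log2 scale in FFSS against P3 (adjusted p = 0.0225). The adaptors Shc1 and Gab1, which link activated receptors to RAS, rose by 0.54 and 0.74 (adjusted p = 0.0226 and 0.0285). The calls of these 3 genes were lost without FFSS replicate 3 or any P3 library (adjusted p = 0.0508 to 0.103), and that of Gab1 also without FFSS replicate 2 (adjusted p = 0.0740). Without P3 replicate 1 or 3 no relay gene was called. Without FFSS replicate 1, 3 rose and 7 fell, and 5131 of all 13059 tested genes were called.

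Of 13 tested target genes of ERK, 7 rose and 2 fell in FFSS against P3, where 11.4% of all tested genes rose and 10.4% fell. Without FFSS replicate 1, 10 rose and 2 fell, and 5131 of all 13059 tested genes were called. Fos, an AP-1 subunit, had 234 ± 74.6 FPKM in FFSS and 3.57 ± 0.240 FPKM in P3 (log2 fold change 5.63, adjusted p = 8.8e-06). Egr1, an immediate early transcription factor, had 44.2 ± 15.2 FPKM in P9, 186 ± 110 FPKM in FFSS and 7.84 ± 1.88 FPKM in P3, with log2 fold changes of 2.32 in P9 (adjusted p = 0.0157) and 4.20 in FFSS against P3 (adjusted p = 0.00116). Junb, another AP-1 subunit, rose by 3.64 in FFSS (adjusted p = 0.00338). Without FFSS replicate 1 the log2 fold changes were 5.90 for Fos, 4.80 for Egr1 and 4.38 for Junb. With all libraries, the 2 targets that fell in FFSS were Etv5 (log2 fold change -1.13, adjusted p = 0.0103) and Ccnd1, the cyclin of the step from rest into the cell cycle. Ccnd1 stood at 224 ± 26.3 FPKM in P9, 52.1 ± 3.45 FPKM in FFSS and 134 ± 6.59 FPKM in P3. Against P3 it was higher in P9 (log2 fold change 0.72, adjusted p = 0.00465) and lower in FFSS (-1.35, adjusted p = 0.000361). In P9, Etv4 also rose (1.29, adjusted p = 0.0127) and no target fell. The call of Etv4 was lost without P9 replicate 2 or P3 replicate 1 or 3 (adjusted p = 0.0542 to 0.0612), and that of Egr1 in P9 without P9 replicate 1 or 2 or P3 replicate 1 or 2 (adjusted p = 0.0530 to 0.0697). The rises in P9 numbered 6 without FFSS replicate 1, 5 without FFSS replicate 2, and 1 without P9 replicate 2 or P3 replicate 1, and 1 fell without FFSS replicate 1 or 2. Over all tested genes, the fits without 1 library called 619 to 2230 in P9 against P3.

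**Figure D4:**
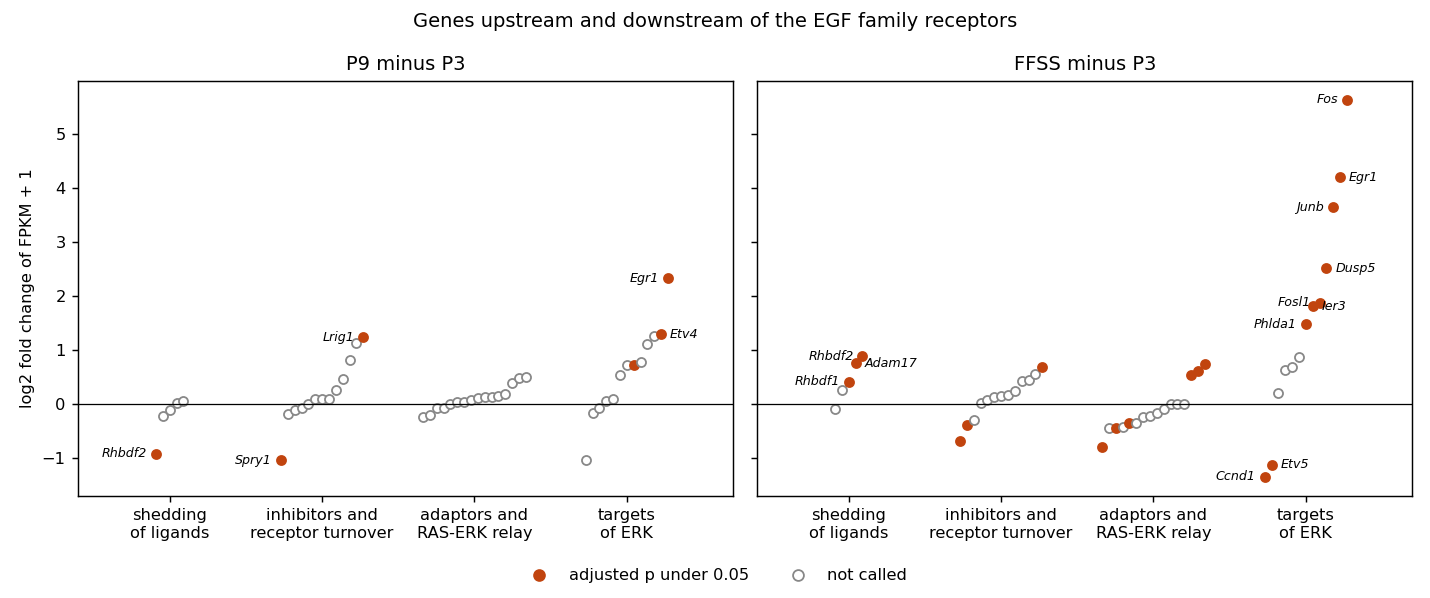
Log2 fold changes of FPKM + 1 (vertical axis) for tested pathway genes in 4 lists, in P9 against P3 (left) and FFSS against P3 (right), ordered by size within a list. Filled symbols are genes with adjusted p under 0.05: Rhbdf2 was below 0 in P9 and above 0 in FFSS, and Fos reached 5.63 in FFSS.

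The genes whose pattern over the 9 libraries came nearest to each called member were found by the root mean square difference of log2(FPKM + 1), each gene centred on its own mean. Nearest to Nrg1 were Slc25a13, Diras2 and Fbn1 (root mean square difference 0.22 to 0.25). Fbn1, the microfibril protein fibrillin 1, averaged 194 FPKM in P9, 48.3 FPKM in FFSS and 92.3 FPKM in P3. Nearest to Ereg were Pla1a, Tiam2 and Man1a1 (0.09 to 0.15), and nearest to Areg were Tmem91, Gcgr and Dclk2 (0.16 to 0.20). Nearest to Errfi1 were Mdm2, Id1 and Slc9b2 (0.19 to 0.25). Mdm2, the p53 inhibitor, averaged 40.3 FPKM in P9, 159 FPKM in FFSS and 20.9 FPKM in P3. Nearest to Tgfa were Rnf181, Phldb2 and Il1rl2 (0.13 to 0.14). These distances describe these libraries only, and a gene with little change can be near to another for that reason.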

How the data were processed

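Polyadenylated RNA of 9 libraries was sequenced. Per the submitters' processing notes, the tools were HISAT2 2.0.5 and featureCounts 1.5.0-p3, on the Rnor_6.0 assembly, and settings and strandedness were not given in the sources used here, so reads of antisense transcripts cannot be told apart. The authors deposited FPKM for 34267 genes, with gene length. In each library, FPKM times length fell on whole multiples of a single step for 100% of values (tolerance 0.01 of a step), which gave the fragments behind each value. The step was 0.948 to 1.04 times that of plain library totals. A count of 0 allows 3 fragments, which covers counting error only.

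The 13059 genes that reached 1 FPKM in 3 or more libraries entered a limma fit (version 3.58.1, R 4.3.3) of log2(FPKM + 1), which modelled a mean per group from the 9 libraries and let the prior variance follow expression. A gene was called when its Benjamini-Hochberg adjusted, two-sided p was under 0.05. The fit was tested on simulated data. Tables and figures used Python 3.11.15, NumPy 2.4.6, pandas 2.3.3 and matplotlib 3.10.9. All 10 members were named, with up to 4 called genes of smallest adjusted p per pathway list and comparison, and the 3 nearest patterns per called member. A gene outside this rule that is named is a marker or was chosen after its values were seen. Members and lists were chosen with earlier results of these data known. Alternatives were another pseudocount, no filter, a filter of 5 FPKM, library totals, the replicate block, voom on fragments, only the compared groups, a log2 fold of at least 1, and leaving out each library. Fits of only the compared groups and fits without 1 library kept the genes that passed the filter with all 9 libraries. The genes Nrg3, Itgam and Pecam1 of the lists were not analysed here. A called gene of the pathway lists is not reported here.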

Additional observations from a re-analysis of the deposited data

Results flagged for a closer look

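The difference between the effects of passage and of shear was called for 4 tested members in limma's test of P9 against FFSS, whose effects are both taken against the same P3 libraries. The P9 effect minus the FFSS effect was 2.005 on the log2 scale for Nrg1 (adjusted p = 0.00126), with all 3 P9 libraries above all 3 FFSS libraries. It was 0.68 for Tgfa (adjusted p = 0.0340), again with no overlap. It was -1.58 for Ereg (adjusted p = 0.000319) and -1.10 for Areg (adjusted p = 0.0338), with all 3 P9 libraries below all 3 FFSS libraries. Areg and Ereg passed the expression filter only through the FFSS libraries, so these values are a description and no support for a difference. Of all genes tested, 31.4% were called in this contrast, and the calls of Tgfa and Areg were lost when single libraries were left out.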

How the results depend on the processing

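In P9 against P3, the members called numbered 1, against 0 without a filter, 2 by voom and 3 with only the 2 groups compared. In FFSS against P3 they numbered 2, against 1 with a filter of at least 5 FPKM (4 members tested) and 1 with a log2 fold of at least 1. In P9 against FFSS they numbered 4, against 2 without a filter and 2 with the filter of at least 5 FPKM. Leaving out each library gave 0 to 3 in P9 against P3, 2 to 4 in FFSS against P3 and 2 to 6 in P9 against FFSS. Over all genes, 1284 were called in P9 against P3 (2488 with only the 2 groups, 647 with the minimum fold, 619 to 2230 without 1 library). In FFSS against P3 there were 2845 (1042 with the minimum fold, 1182 to 5131 without 1 library), and in P9 against FFSS 4100 (2491 with only the 2 groups, 1723 with the minimum fold, 2667 to 5986 without 1 library). The replicate block left 1, 2 and 4 members called and 982, 2265 and 3629 genes in the same order of comparisons. It changed no member's call, but in FFSS against P3 it left 2 relay genes higher and 1 lower, and among named genes it ended the calls of Nras, Rnf41 and Rhbdf1 (adjusted p = 0.0516, 0.0683 and 0.0569). Same-numbered libraries did not deviate together (r -0.04 to 0.03). With so few libraries per group, these correlations cannot exclude that same-numbered libraries shared an animal or a batch. Of 372 values of single members under alternatives, 327 kept direction and call, 23 lost a call, 12 gained one and 10 changed sign. None of those that changed sign was called. For Egfr in FFSS against P3 the log2 fold change became -0.033 with 0.1 FPKM added and -0.041 by voom, and spanned -0.42 to 0.54 without 1 library. Without 1 library, the spans that crossed 0 were otherwise -0.26 to 0.20 for Tgfa and -0.29 to 0.12 for Erbb2 in FFSS against P3, and -0.61 to 0.37 for Hbegf and -0.019 to 0.94 for Egfr in P9 against FFSS. Fits with fewer libraries have fewer degrees of freedom; otherwise the cause was not tested. Depth limits Btc and Erbb3, at up to 3 and 6 fragments a library, and leaves Ereg in P9 at 2 to 7.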
